A study of Mus musculus with 18 samples.

Results

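The mRNAs of the IL-10 receptor, the Janus kinases and the STAT factors were followed on 18 arrays of mouse macrophages during the opening 30 min of LPS treatment, with and without IL-10. The members are the 9 genes Il10ra, Il10rb, Jak1, Jak2, Tyk2, Stat2, Stat3, Stat5a and Stat6. They were found by symbol in the platform annotation and had 22 of the 45101 probe sets, a probe set being a group of short probes read together as 1 signal. Of these 22, 21 were tested, having reached the array's median signal on at least 3 arrays. The tested members were set among 27110 tested probe sets.

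IL-10 binds a receptor made of the chains IL-10R alpha (Il10ra) and IL-10R beta (Il10rb). The kinases Jak1 and Tyk2 lie on these chains and phosphorylate them, STAT3 docks there, is phosphorylated in turn and moves to the nucleus to switch on genes. In macrophages STAT3 carries the restraining action of IL-10 on inflammatory genes. This signal runs through proteins that are already present, and an array reads mRNA, so phosphorylation was not measured.

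The cells were bone-marrow-derived macrophages of IL-10-/- mice, grown for 7 days with CSF-1 from L cell conditioned medium. They were given LPS, the bacterial product sensed by Toll-like receptor 4, at 100 ng/ml, either alone or with IL-10 at 10 ng/ml, for 10, 20 or 30 min in medium without CSF-1. Each of the 6 groups had 3 arrays, from 3 independent experiments done in sequence with mice matched for age and sex, called experiments 1, 2 and 3 here. All groups lacked the Il10 gene product of their own and all received LPS, and neither untreated nor wild-type cells were analysed here.

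All 9 macrophage markers on the array, Csf1r, Adgre1 and Cd68 among them, were above the array median on all 18 arrays, with summed signals of 113400 to 201500. Of 7 granulocyte markers 6 were above the median on every array. Their sum was 11860 to 14020 in experiment 2, against 7038 to 8584 in experiment 1 and 5640 to 9085 in experiment 3, and its part in the differences between experiments below was not tested. None of the B lymphocyte, T lymphocyte, erythroid or dendritic markers was above the median on all arrays, and 3 of 5 stromal markers were. The LPS 20 min arrays of experiments 2 and 3 stood apart, with lower quartiles of signal of 38.7 and 34.1 against 21.9 to 31.1 on the others. In a bulk sample fewer cells of a type and less RNA per cell cannot be told apart.

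Promoter sequence was at hand for 7 of the 9 members in 8 windows. The windows below are the 250 bases upstream of the start of transcription from RefSeq (GRCm38.p6), written 5′ to 3′ on the gene's strand. Stat3 is shown because its probe sets gave unlike values, Stat2 because it alone among the member windows held a searched motif, and Socs3, a STAT3 target that was called in these data, for comparison. Capitals mark matches, on either strand, to the STAT motif TTCNNNGAA or to the interferon-response motif GAAANNGAA. Stat3 is at chr11:100939541-100939790 (minus strand), Stat2 at chr10:128270248-128270497 (plus) and Socs3 at chr11:117969367-117969616 (minus).
Stat3: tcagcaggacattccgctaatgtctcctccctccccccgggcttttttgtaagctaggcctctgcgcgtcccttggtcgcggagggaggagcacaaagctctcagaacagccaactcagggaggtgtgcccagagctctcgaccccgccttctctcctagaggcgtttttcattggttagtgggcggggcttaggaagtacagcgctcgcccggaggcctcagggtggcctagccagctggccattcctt
Stat2: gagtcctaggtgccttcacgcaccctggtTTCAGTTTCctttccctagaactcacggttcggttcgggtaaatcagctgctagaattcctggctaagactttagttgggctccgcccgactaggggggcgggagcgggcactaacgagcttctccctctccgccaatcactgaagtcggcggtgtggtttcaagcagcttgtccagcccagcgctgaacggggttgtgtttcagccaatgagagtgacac
Socs3: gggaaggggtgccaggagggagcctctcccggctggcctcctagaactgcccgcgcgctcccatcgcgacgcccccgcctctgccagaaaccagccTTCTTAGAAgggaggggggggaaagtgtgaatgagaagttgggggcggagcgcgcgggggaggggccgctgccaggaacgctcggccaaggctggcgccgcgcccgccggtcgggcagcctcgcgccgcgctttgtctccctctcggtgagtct
The STAT motif was in 0 of the 8 member windows, and in 7.02% of 32851 windows of the same length over all genes. In the Socs3 window it reads TTCTTAGAA, beginning 154 bases upstream of the start. The interferon-response motif was in 1 member window, that of Stat2, where it reads TTCAGTTTC on the strand shown and begins 221 bases upstream. It was in 7.13% of all windows. A match is a string of letters and no evidence of binding.

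No member was called with IL-10 at any time. The test was limma's moderated test on log2(signal + 16), Benjamini-Hochberg adjusted over all tested probe sets with a threshold of 0.05, and 0 of 21 members passed at 10, 20 or 30 min or averaged over the times. Of all tested probe sets 0% passed at 10 min, 0.00738% at 20 min, 0.0111% at 30 min and 0.0111% on the average. At an unadjusted p under 0.05 there were 0, 1, 1 and 1 members respectively, the last 3 being the same Stat3 probe set, against 1.14%, 3.01%, 1.16% and 1.56% of all probe sets. With the experiment as a block, in which each treated array is set against its own experiment, 0 members passed as well, where 0%, 0.0184%, 0.0443% and 0.0332% of all probe sets did. In that fit 0, 3, 1 and 1 members had an unadjusted p under 0.05, against 3.58%, 7.81%, 2.81% and 4.21% of all probe sets. On the average over times 16 of the 21 members were higher with IL-10, with a median log2 difference of 0.05, against a median of -0.01 and 46.8% higher over all probe sets. By time 12, 15 and 9 of the 21 were higher at 10, 20 and 30 min, with medians of 0.04, 0.10 and -0.03, where 50.2%, 47.7% and 47.6% of all probe sets were.

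Stat3, the factor that IL-10 receptors activate, had 4 probe sets whose measured IL-10 differences were unlike in size, though no pairing of them passed a test of unequal change. Probe set 1459961_a_at, a dim one, stood higher with IL-10 at 20 and 30 min, while the ratios of IL-10 to LPS of the brightest 2 lay between 1.00 and 1.18. At 10 min its signal was 108.9, 143.7 and 120.5 with LPS in experiments 1, 2 and 3, and 150.8, 93.4 and 144.7 with LPS plus IL-10. The groups overlapped. At 20 min it read 138.9, 36.7 and 240.4 with LPS against 262.1, 313.4 and 489.4 with IL-10. At 30 min it read 133.5, 88.0 and 120.6 against 483.3, 517.8 and 404.0. All IL-10-treated arrays lay above all LPS arrays at both later times, with the lowest LPS value in experiment 2 at 20 min. Non-overlap in this direction was seen in 1.89% of all tested probe sets at 20 min and 2.05% at 30 min, and among members in 1 and 2 of 21. At 10 min it was seen in 2 members, against 2.07%. In the other direction 0 members lay apart at 10, 20 or 30 min, against 2.61%, 3.01% and 2.76% of all tested probe sets.

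The ratio of mean signals, IL-10 over LPS, of 1459961_a_at was 1.04 at 10 min, 2.56 at 20 min and 4.11 at 30 min. In the fit the log2 difference was 1.49 (SE 0.42, 95% interval 0.60 to 2.37) at 20 min and 1.91 (SE 0.42, 1.02 to 2.79) at 30 min. Neither passed over all probe sets, with limma adjusted p of 1 and 0.627, or 0.514 and 0.0984 with the block. The size at 20 min rested in part on the LPS array of experiment 2: without it the difference was 0.85, and without both arrays that stood apart 1.21. Leaving out that same LPS 20 min array, which takes no part in the 30 min contrast itself, left the 30 min difference at 1.91 and brought its limma adjusted p to 0.0262. Averaged over times the difference was 1.14 (SE 0.24, adjusted p = 0.625, 0.0798 with the block), higher in 8 of 9 same-experiment pairs, and 1.00, 1.48 and 0.94 in experiments 1, 2 and 3. Within LPS plus IL-10 it was 1.75 higher at 30 than at 10 min (SE 0.42, adjusted p = 0.524, 0.0574 with the block), and within LPS alone the difference was -0.12 (SE 0.42). The change of the IL-10 effect between 10 and 30 min was 1.87 (SE 0.59, adjusted p = 1 with and without the block).

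The bright Stat3 probe set 1426587_a_at gave no such difference. Its signals at 30 min were 2238.8, 2997.4 and 2369.9 with LPS and 2232.8, 3097.8 and 2662.5 with IL-10, and at 20 min 2133.2, 3261.8 and 1388.7 against 2513.3, 2225.0 and 2043.6. The groups overlapped at both times, and the ratios of means were 1.05, 1.00 and 1.05 at 10, 20 and 30 min. Averaged over times the log2 difference was 0.07 (SE 0.14, 95% interval -0.23 to 0.37).

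Probe set 1460700_at behaved much like it, with ratios of 1.05, 1.18 and 1.01. Its 30 min signals were 1299.2, 1763.9 and 1378.1 with LPS and 1150.2, 1806.8 and 1511.1 with IL-10, and the averaged difference was 0.10 (SE 0.15, -0.22 to 0.42). It was higher with IL-10 in 8 of 9 pairs, as 1459961_a_at was, though by far less. The dimmest, 1424272_at, ranged from 54.4 to 243.1 with overlapping groups at every time, and its averaged difference was 0.11 (SE 0.23, -0.37 to 0.60). The averaged intervals of 1426587_a_at, 1460700_at and 1424272_at end below the lower bound of 0.63 for 1459961_a_at. These intervals are not adjusted over probe sets and are no test between them. The test of unequal change, given below, passed for no pairing.

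**Figure D1:**
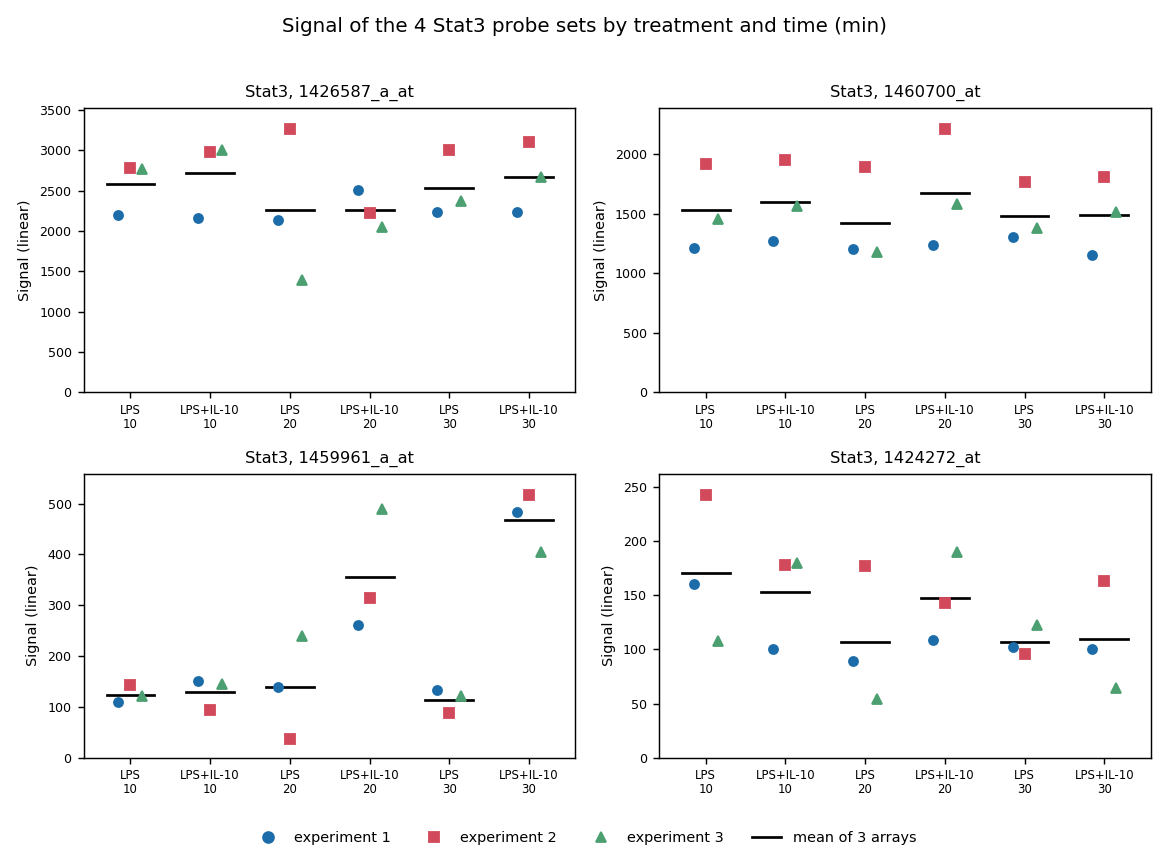
Signal (linear scale, each axis from 0) of the 4 Stat3 probe sets by treatment and time in min, with 1 point per array, shape and colour by experiment, and a bar at the mean of 3 arrays. For 1459961_a_at the mean was 468.4 with IL-10 at 30 min against 114.0 with LPS, while for 1426587_a_at the means were 2664 and 2535.

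Whether the Stat3 probe sets moved unequally was tested on the log2 ratio of 2 probe sets within each array, by exact sign-flip permutation over the 9 same-experiment pairs, two-sided. With IL-10, 1459961_a_at gained 1.07 (SD 1.2, n = 9 pairs) on 1426587_a_at (exact p = 0.0312), 1.05 (SD 1.04) on 1460700_at (exact p = 0.0234) and 1.03 (SD 1.26) on 1424272_at (exact p = 0.0469). Each adjusted p over the 6 pairings was 0.0938, so 0 of 6 passed, where the smallest p the design allows is 0.00391. Pairs of the same experiment share cells, and over 3 experiments as the units no p below 0.25 is possible. Between the other 3 probe sets the IL-10 difference was at most 0.04 in size, each with an adjusted exact p of 0.957. For 30 against 10 min 0 of 6 pairings passed either: the widest was 1459961_a_at against 1424272_at, which differed by 1.32 (SD 1.1, n = 6 pairs, exact p = 0.0625, adjusted p = 0.234). With 6 pairs the smallest exact p is 0.0312. If 1 probe set alone moved apart, that p would not pass after adjustment. The test therefore cannot decide whether 1 probe set changed unequally with time. Where on the transcript each probe set lies was not analysed here.

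The receptor chains did not pass in any comparison. Il10ra, the chain that binds IL-10, was read by 1448731_at at 235.6, 559.0 and 702.8 after 10 min of LPS in experiments 1, 2 and 3, and at 276.2, 486.5 and 721.2 with IL-10. At 30 min it read 411.8, 552.4 and 810.4 against 368.5, 587.8 and 677.1. At 20 min it read 252.0, 544.1 and 440.4 against 375.3, 696.6 and 569.5, higher in each experiment, with a limma difference of 0.42 (SE 0.43, adjusted p = 1). With the block its SE was 0.18 and its 95% interval 0.03 to 0.81, and it did not pass (limma adjusted p = 0.622). Experiment 1 was lowest in every group and the treatments overlapped at every time. The IL-10 difference averaged over times was 0.11 (SE 0.25, 95% interval -0.41 to 0.63). Its other probe sets were dim: 1437808_x_at ran from 3.4 to 259.9 and reached the array median on 6 arrays, and 1456173_at ran from 1.9 to 20.1, reached it on 0 and was not tested.

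Il10rb, the chain shared with other cytokine receptors, was bright on 1419455_at. It read 7500.8, 9186.8 and 6591.7 after 30 min of LPS and 7944.4, 9359.2 and 6434.8 with IL-10. At 10 min it read 7472.4, 9254.4 and 6801.9 against 7795.4, 9722.2 and 5840.9. The treatments overlapped, and the same order of experiments (2 over 1 over 3) held in every group. The averaged IL-10 difference was 0.02 (SE 0.15, -0.31 to 0.35), with the block -0.11 to 0.15. The dimmer 1429959_at read 241.7, 230.7 and 243.5 with LPS and 266.2, 265.2 and 244.5 with IL-10 at 10 min. These did not overlap, as in 2.07% of all probe sets at that time in this direction, and the difference was 0.11 (SE 0.25). At 20 min it read 226.3, 217.9 and 297.8 with LPS and 164.0, 138.2 and 278.5 with IL-10, lower in each experiment with overlapping groups. The limma difference was -0.37 (SE 0.25) at 20 min, -0.27 (SE 0.25) at 30 min and -0.18 (SE 0.14) averaged, each with an adjusted p of 1.

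Among the kinases, Jak1, which sits on the alpha chain, read 4716.1, 4626.3 and 4300.7 on 1433805_at after 30 min of LPS and 4173.0, 4524.2 and 4476.0 with IL-10. At 10 min it read 4291.9, 5029.4 and 4191.3 against 4837.7, 5673.5 and 4492.3, higher in each experiment. The groups overlapped at both times. Its averaged difference, 0.02 (SE 0.08, -0.16 to 0.19), was bounded more tightly than that of any other member without the block. Tyk2, the partner of the beta chain, read 701.4, 935.4 and 1056.1 on 1417306_at with LPS at 30 min and 666.2, 771.2 and 981.1 with IL-10, lower in each experiment but with overlapping groups. At 10 min it was higher in each, 826.7, 1038.4 and 1139.7 with IL-10 against 695.8, 817.5 and 1087.2. The limma differences were -0.15 (SE 0.24) and 0.22 (SE 0.24), and neither passed (adjusted p = 1 and 0.9999). The change of the Tyk2 difference from 10 to 30 min was -0.37 (SE 0.34 without the block, limma adjusted p = 1). That SE counts the differences between experiments as spread. With the block the SE of the Tyk2 difference was 0.10 at 10 min and 0.10 at 30 min. Neither difference passed in that fit (limma adjusted p = 0.9997 for each). The second Tyk2 probe set, 1432576_at, was dim, at 16.7 to 169.9. Jak2, used by interferon gamma and GM-CSF receptors rather than by the IL-10 receptor, read 825.8, 1137.9 and 1260.1 on 1421066_at against 763.6, 1403.0 and 1406.6 at 30 min. These overlapped too, with an averaged difference of 0.05 (SE 0.22, -0.41 to 0.51). The dimmer Jak2 probe set 1421065_at, at 382.6 to 825.8, had one of -0.11 (SE 0.15, -0.43 to 0.22).

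Of the remaining STATs, Stat5a, which serves GM-CSF and other growth signals, read 442.4, 506.3 and 516.3 on 1421469_a_at after 30 min of LPS and 534.6, 524.3 and 592.9 with IL-10. At 10 min it read 483.9, 498.4 and 470.9 against 588.4, 532.8 and 522.3. The treatments did not overlap at either time, as in 2.07% of all tested probe sets at 10 min and 2.05% at 30 min in this direction, but did at 20 min, and the limma differences were 0.17 (SE 0.22) at both times, with adjusted p of 0.9999 and 1. Stat6, the factor of IL-4 and IL-13, read 4559.8, 5213.1 and 4128.9 on 1426353_at at 30 min with LPS and 4527.6, 5475.3 and 4453.8 with IL-10. The groups overlapped, and the averaged difference was 0.07 (SE 0.10, -0.14 to 0.27). On the dimmer Stat6 probe set 1421708_a_at, at 1036 to 2389, it was -0.03 (SE 0.15, -0.35 to 0.29).

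**Figure D2:**
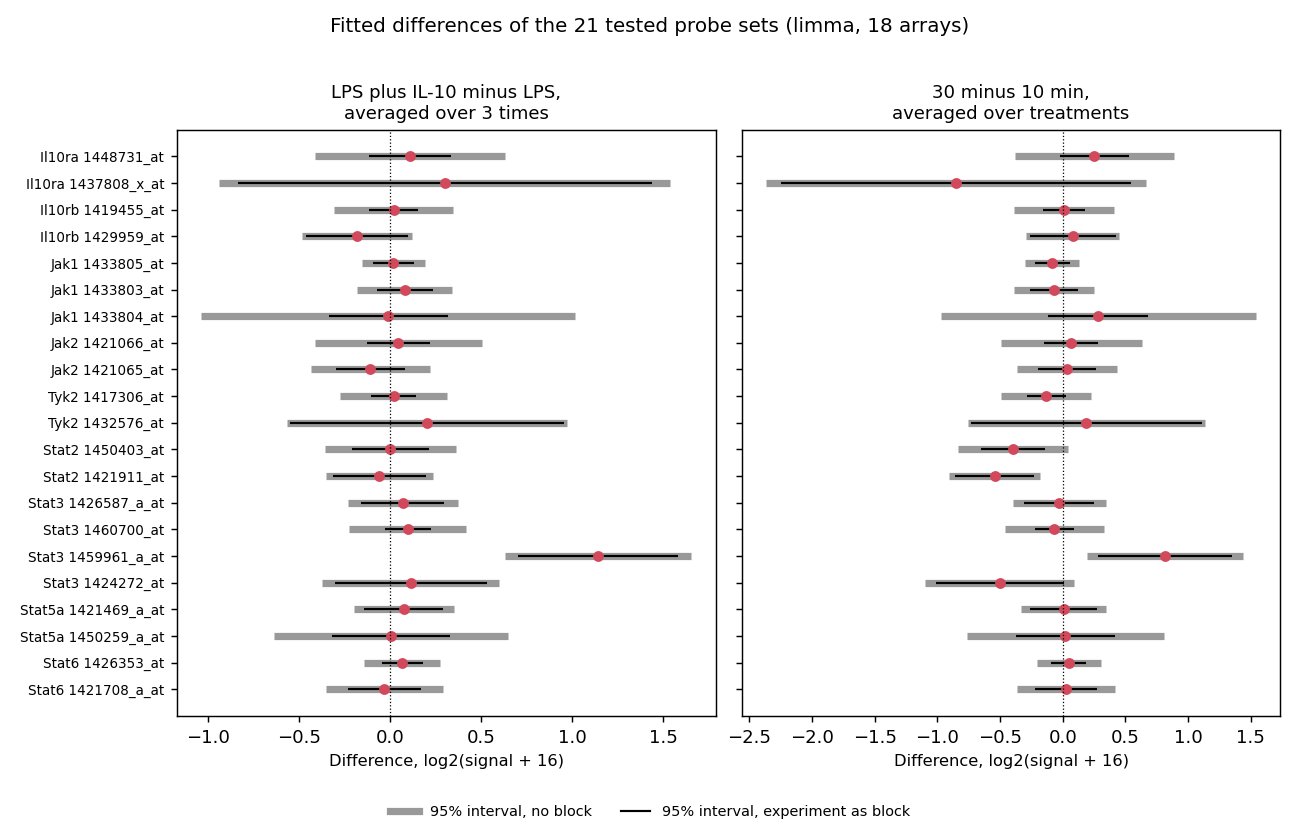
Fitted differences in log2(signal + 16) of the 21 tested probe sets, with IL-10 averaged over 3 times on the left and 30 minus 10 min averaged over treatments on the right, the point being the estimate and the bars 95% intervals without (grey) and with (black) the experiment as a block. On the left only the intervals of Stat3 1459961_a_at, at 1.14, lie clear of 0 in both fits. The intervals are not adjusted over probe sets, and this probe set did not pass after adjustment in either fit.

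Over time no member was called either. For 20 against 10 min 0 of 21 members passed in limma under LPS alone and 0 under LPS plus IL-10, where 0% and 0.0111% of all probe sets did. For 30 against 10 min the members called were 0 under LPS alone, 0 under both agents and 0 averaged over treatments, against 0.0184%, 0.0443% and 0.059% of all probe sets. With the block 0 members passed in any of these, against 0.0148% and 0.0332% at 20 min and 0.111%, 0.225% and 0.435% at 30 min. At an unadjusted p under 0.05 there were 2, 1, 1, 1 and 2 members, in that order, against 3.32%, 1.52%, 1.35%, 2.31% and 2.72% of all probe sets. In the blocked fit there were 2, 3, 2, 3 and 3, against 9.17%, 5.44%, 3.71%, 5.8% and 7.16%. The IL-10 effect itself changed between times in 0 members, against 0% of all probe sets for 20 against 10 min and 0.00369% for 30 against 10 min, or 0.00738% and 0.0184% with the block, with 1 member at an unadjusted p under 0.05 in each, against 2.05% and 0.981%. In the blocked fit 1 and 2 members were under that unadjusted p, against 6.36% and 2.45%. These comparisons share the 10 min arrays.

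Stat2, the partner of interferon signalling that joins IRF9 in a DNA-binding complex, had lower mean signals at 20 and 30 min of LPS than at 10 min on both of its probe sets. On 1450403_at it read 699.9, 739.5 and 595.6 at 10 min of LPS, 497.2, 382.7 and 247.5 at 20 min and 604.0, 471.0 and 467.8 at 30 min. All 20 min arrays lay below all 10 min arrays, and 30 min overlapped 10 min. This was the 1 member of 21 lower without overlap at 20 min, against 2.64% of all tested probe sets. On 1421911_at it read 551.6, 584.1 and 439.0, then 322.3, 474.3 and 250.8, then 286.3, 341.3 and 298.4. Here all 30 min arrays lay below all 10 min arrays, again 1 member of 21, against 3.42%. With IL-10 1450403_at read 744.8, 644.1 and 516.1 at 10 min and 525.3, 512.2 and 390.9 at 30 min, and 1421911_at read 542.2, 346.1 and 442.4 and then 300.9, 365.0 and 351.7, overlapping on both. At 20 min with IL-10 1450403_at read 643.2, 462.2 and 253.8 and 1421911_at read 425.0, 290.8 and 275.7. Both were lower than at 10 min in each experiment, with overlapping groups.

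The fit put Stat2 1450403_at at -0.87 (SE 0.29, limma adjusted p = 0.9998, 0.141 with the block) for 20 against 10 min of LPS. Of its 3 arrays at 20 min 2 are those that stood apart, and without them the difference was -0.43. Within LPS plus IL-10, on other arrays, 20 against 10 min was -0.55 (SE 0.29, limma adjusted p = 0.9999, 0.795 with the block). For 1421911_at it was -0.41 there (SE 0.24, limma adjusted p = 0.9999, 0.918 with the block). The experiment 3 array of LPS plus IL-10 at 20 min had a lower quartile of 31.1, the highest after the 2 that stood apart. It read 253.8 on 1450403_at and 275.7 on 1421911_at, the lowest of its group on both. No fit without this array alone was run. Stat2 1421911_at was at -0.73 (SE 0.24, adjusted p = 1, 0.691 with the block) for 30 against 10 min of LPS, and at -0.54 averaged over treatments (SE 0.17, adjusted p = 0.9999, 0.221 with the block). Time took 45.8% and 50.5% of the sum of squares of the 2 Stat2 probe sets over the 18 arrays, and IL-10 under 1% in both. These were the largest time shares among the members. The median time share was 12.2% over the members and 7% over all tested probe sets. How many of all probe sets reached such shares was not counted, and the shares include the 20 min arrays that stood apart.

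**Figure D3:**
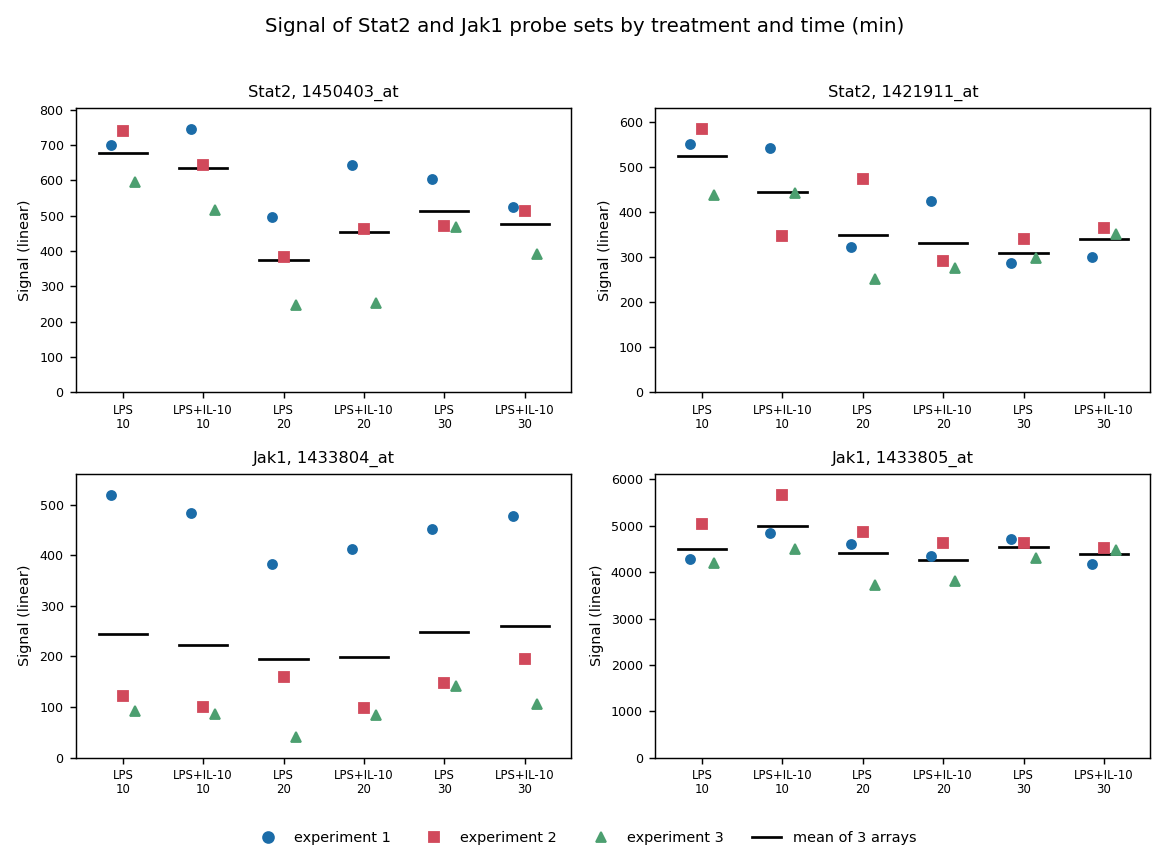
Signal (linear scale, each axis from 0) of both Stat2 probe sets and of 2 Jak1 probe sets by treatment and time in min, 1 point per array with shape and colour by experiment and a bar at the mean of 3 arrays. Stat2 1421911_at had means of 524.9 at 10 min and 308.7 at 30 min of LPS, and Jak1 1433804_at stood at 383.5 or more in experiment 1 and at 194.2 or less in the others.

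The experiment took a larger share of the sum of squares than the treatment in 18 of the 21 members and more than 50% of it in 11. Treatment took the larger share in Stat3 1459961_a_at, Il10rb 1429959_at and Tyk2 1432576_at. An F test between experiments in limma called 13 of 21 members, in all 9 genes, against 51.6% of all tested probe sets, so that the members' share of 61.9% was near the background. The median share of the sum of squares that lay between experiments was 50.3% over the members and 37.9% over all probe sets, and that of treatment 1.4% and 1.36%. In 11 of 21 members the highest and the lowest experiment did not overlap, a larger share than the 34.2% of all tested probe sets. Whether the members differ from the rest in this was not tested.

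The experiments did not run in a common order. Il10ra 1448731_at averaged 319.9 in experiment 1, 571.1 in experiment 2 and 653.6 in experiment 3 (SD 74.17, 69.87 and 130.1, n = 6 arrays each). Jak2 1421066_at took the same order, at 749.0, 1208 and 1452, as did Tyk2 1417306_at at 739.2, 916.7 and 1105. Il10rb 1419455_at was highest in experiment 2 at 9337 and lowest in experiment 3 at 5924, and Stat6 1426353_at likewise at 5236 and 4100. Stat3 1460700_at was also highest in experiment 2, at 1923, against 1228 in experiment 1. The limma adjusted p between experiments ran from 8.70e-08 (Jak1 1433804_at) to 0.0239 (Jak1 1433805_at) among the 13.

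The Jak1 probe sets took different orders of the experiments. On 1433804_at all 6 arrays of experiment 1 read 383.5 to 519.9 and the 12 arrays of the others 40.9 to 194.2, a ratio of 3.98 between the means, which 0.52% of all tested probe sets reached. On 1433803_at experiment 1 was the lowest, with a mean of 1502 against 1917 and 1986. On 1433805_at it lay between the others, 4497 against 4893 and 4167. Stat5a 1450259_a_at shared the pattern of the dim Jak1 probe set, at 252.2 in experiment 1 against 107.4 and 111.7, while 1421469_a_at read 526.9, 493.6 and 620.2.

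**Figure D4:**
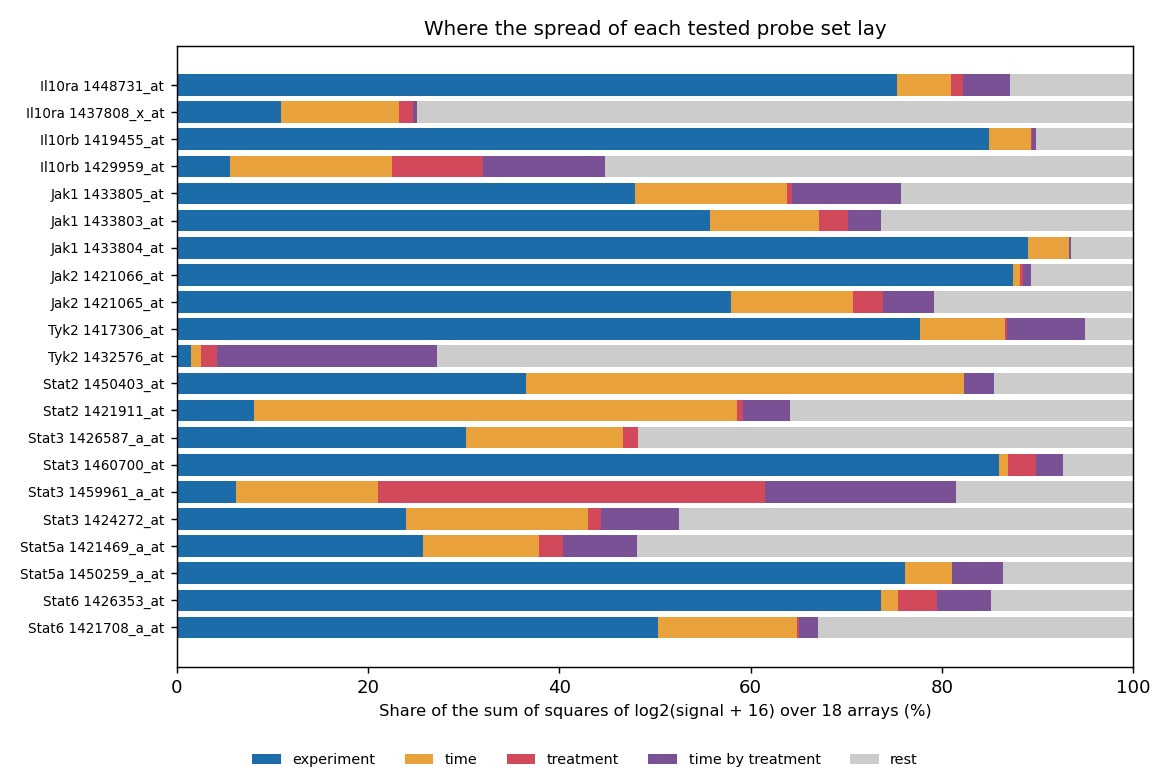
Share in percent of the sum of squares of log2(signal + 16) over 18 arrays that lay between experiments, times, treatments, their interaction and the rest, for the 21 tested probe sets. Experiment took 89% in Jak1 1433804_at and 86% in Stat3 1460700_at, while treatment took 40.5% in Stat3 1459961_a_at and at most 9.5% in the others.

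The probe sets most like the brightest Stat3 probe set over the 18 arrays, by Pearson's r of log2 signal, were those of Zswim8 (0.898, or 0.894 with experiment means removed), Mcrs1 (0.863, 0.84) and Lgals9 (0.86, 0.89). For Il10ra 1448731_at they were Tnfaip2 (0.953, 0.795), Tpgs1 (0.948, 0.804) and Cebpd (0.947, 0.825). All share the arrays, and for Il10ra the likeness was lower once experiment means were removed.

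Around the members, the other parts of the pathway were counted gene by gene in limma. Of 17 other cytokine receptor genes that signal through Janus kinases 16 had a tested probe set, and 0 were called in any of the 11 comparisons, with or without the block. The brightest were Csf2ra and Csf2rb, chains of the GM-CSF receptor, at IL-10 differences averaged over times of 0.07 (SE 0.13) and 0.03 (SE 0.19). Of 4 other Janus kinase and STAT genes 3 were tested and 0 called, and of 10 STAT coactivators and nuclear carriers 10 and 0. By their brightest probe sets 0 genes of these 3 lists had an unadjusted p under 0.05 with IL-10 at any time or averaged. Among 20 inhibitors of Janus kinase and STAT signalling, 19 tested, 1 was called, Socs3, a feedback inhibitor of cytokine signalling. Socs3 1455899_x_at was 2.53 higher with IL-10 at 20 min (SE 0.30, limma adjusted p = 0.00503) and 2.42 at 30 min (SE 0.30, adjusted p = 0.00464). The phosphatase genes Ptpn6 and Ptpn1 were at 0.07 (SE 0.17) and 0.00 (SE 0.20).

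Of 15 genes known to be induced through STAT3, all tested, 2 were called higher with IL-10 at 30 min, 6 with the block, and 0 lower, with a median difference of 0.36. The 2 were Socs3 and Sbno2, a co-repressor on the IL-10 pathway, whose probe set 1439349_at was 1.51 higher at 20 min (SE 0.22, adjusted p = 0.0394) and 2.51 at 30 min (SE 0.22, adjusted p = 7.24e-05). At 10 min 0 of the 15 were called in limma, 0 had an unadjusted p under 0.05 by their brightest probe set, and the median was -0.02. This list holds genes chosen with their answer in these arrays known and is no independent evidence of direction.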

How the data were processed

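The 18 single-colour arrays, 3 in each of 6 groups, were grouped by their labels. The authors deposited linear intensities, a column for each array, which come from GCOS 1.4 according to the submitters' processing notes, with the algorithm behind the signal not given in the sources used here. The deposited intensities had a trimmed mean of 500 on every array, so a change of total RNA cannot be seen. No detection calls were used, so low signals cannot be told from background, and the number of arrays limits the precision.

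Gene names come from the annotation of the platform and may be out of date. After 64 control probe sets were left out, those at or above the array median on at least 3 arrays were kept (27110 of 45101). The values log2(signal + 16), which understate folds of dim probe sets, were fitted with limma 3.58.1 (R 4.3.3, lmFit, then eBayes with trend), leaving 12 degrees of freedom. Tests were two-sided and were adjusted by Benjamini-Hochberg over all tested probe sets of each of 11 comparisons. The script was tested on simulated data.

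Per the labels' protocols each replicate number is an independent experiment, which is where the pairing comes from. Deviations from group means correlated at 0.201 to 0.642 in 45 same-number pairs of arrays and at -0.471 to 0.0651 in 90 others, so a fit that takes the experiment as a replicate block, with 10 degrees of freedom, is given where it bears on a call. A fit without it counts differences between experiments as spread.

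All member probe sets were described, the gene's brightest first, and a pathway gene was named where called or among the brightest of its list. The likeness of other genes was taken over the probe sets with 1 gene symbol. Members and lists were chosen with earlier results of these data known. Other settings tried were the normalisation, the pseudocount, the filter, the block, the arrays in the fit, the intensity trend and leaving arrays or experiments out.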

Additional observations from a re-analysis of the deposited data

How the results depend on the processing

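With the replicate block the count of members called stayed at 0 of 21 in each of the 11 comparisons of treatment and time, as it did with quantile normalisation, pseudocounts of 1 and 64, no filter, a 75th percentile filter and no intensity trend. In 3 comparisons the count was 1 under some setting, each time Stat3 1459961_a_at. The counts for the IL-10 effect at 30 min and for 30 against 10 min with LPS plus IL-10 ran from 0 to 1 when arrays were left out, being 1 without the LPS 20 min array of experiment 2 (limma adjusted p = 0.0262 and 0.0266) and 1 without those of experiments 2 and 3 together (0.0197 and 0.0181). With the replicate block and a pseudocount of 64 together, chosen after seeing the data, the count was 1 for both and 1 for the IL-10 effect averaged over times (0.0236, 0.0159 and 0.0299). The cause was not tested. Over 21 settings the adjusted p of this probe set ran from 0.0197 to 1 at 30 min, from 0.0299 to 1 averaged over times and from 0.385 to 1 at 20 min, where its log2 difference ran from 0.85 to 1.99. The count of 13 members that differed between experiments ran from 6, without experiment 1, to 14, without the LPS 20 min array of experiment 3. The 0 of 6 Stat3 pairings held in every setting run, but not all settings could have changed it. Leaving out an experiment leaves fewer pairs. For 30 against 10 min no pairing could then pass. For the IL-10 effect none could if 1 probe set alone moved apart. Those settings therefore tell nothing about how firm the count is. Of 925 values of single members under alternatives 914 stayed within the replicate spread and their side of the threshold, 4 moved, 7 came to pass it and 0 reversed; 67 of them, all from uncalled differences, had another sign than in the fit reported. With 3 arrays per group and 1 signal scale, small changes of mRNA cannot be told from none.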
